A study of Mus musculus with 7 samples.

Results

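In differentiating ATDC5 cells, 2026 regions at genes were listed as enriched for 5-hydroxymethylcytosine (5hmC) at day 10 with no partner at day 5. They were chosen by 2 conditions. Each is a region of the day 10 5hmC list that carries a gene symbol in the deposited list, and none shares a base with a region of the day 5 5hmC list. They make up 2026 of the 4164 regions of the day 10 list. Of the others, 383 had a symbol and a day 5 partner, 327 a partner and no symbol, and 1428 neither. The day 5 list held 2058 regions, of which 880 had a symbol and no partner at day 10. Presence at day 10, absence at day 5 and the symbol selected the regions, so these are descriptions and carry no test.

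ATDC5 is a mouse teratocarcinoma line of chondroprogenitors, which makes a cartilage matrix after induction with insulin. All samples were genomic DNA of this line with no knockdown or other genetic change named in their labels. Per the labels, day 5 and day 10 5hmC came from differentiating chondrocytes (2 samples each, merged by the authors to 1 list for each day), day 10 5-methylcytosine (5mC) from differentiating chondrocytes (1 sample), and day 0 5mC and input DNA from chondroprogenitors (1 sample each). The lists hold positions and no score, read count or fold per region, so neither depth nor replicate spread is known and every test below compares regions, not cultures. The days are those of the labels, from which the study's text departs. By its names for the stages, 5mC at day 10 was taken from more mature cells than 5hmC at day 10, and whether these lists share a day was not tested. The sample against which each list was called is not given in the sources used here.

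5hmC is made from 5mC by the TET dioxygenases, which oxidise the methyl group on cytosines that are mostly followed by guanine (CpG). It can be an intermediate on the way to unmethylated cytosine or can persist, and in differentiated cells it is known to lie over the bodies of transcribed genes and over enhancers. Enhancers are short stretches bound by transcription factors. In chondrocytes SOX9 with SOX5 and SOX6 drives the cartilage matrix genes, and RUNX2 acts in the later hypertrophic stage. AP-1 (FOS and JUN dimers), nuclear factor I (NF1) and TEAD factors, the partners of YAP, bind enhancers in many mesenchymal cells.

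Of the regions of at most 300 bp at genes of the lists used here, 12 that hold a string known to be bound by these factors are printed, to show the strings and CpG sites that are counted further on. Regions with 2 different strings within their own bases came first. Then followed some with 1 string, taken only from SOX, RUNX, nuclear factor I and collagen genes and genes named in the study. The many collagen genes among them follow from this choice. Further on, strings are counted in the 200 bp window around the midpoint, which can reach past a short region. The sequence is the plus strand of GRCm38, 5′ to 3′, from the first to the last base of the region. Capitals mark the strings for AP-1 (TGACTCA), NF1 (CTGCCAAG or TTGCCAAG), RUNX (AACCACA), SOX (ACAAAGG or ACAATGG) and TEAD (GGAATGT), on either strand. The first 3 regions held 2 different strings each. They lay upstream of Col5a1, which encodes a chain of fibrillar collagen V (chr2:27881358-27881498, AP-1 and SOX), in intron 4 of 7 of the planar polarity gene Vangl1 (chr3:102177980-102178189, AP-1 and RUNX) and in intron 9 of 9 of Wif1, a secreted WNT inhibitor (chr10:121098267-121098395, AP-1 and TEAD). In Vangl1 and Wif1 the strings were neighbours, separated by 1 base.
Col5a1 upstream: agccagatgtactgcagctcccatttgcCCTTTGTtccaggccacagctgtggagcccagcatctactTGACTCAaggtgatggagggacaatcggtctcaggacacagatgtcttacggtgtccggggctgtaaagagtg
Vangl1: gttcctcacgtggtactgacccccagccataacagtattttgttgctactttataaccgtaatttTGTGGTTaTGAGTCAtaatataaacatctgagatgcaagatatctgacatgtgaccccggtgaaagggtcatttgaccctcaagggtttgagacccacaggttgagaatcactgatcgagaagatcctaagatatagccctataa
Wif1: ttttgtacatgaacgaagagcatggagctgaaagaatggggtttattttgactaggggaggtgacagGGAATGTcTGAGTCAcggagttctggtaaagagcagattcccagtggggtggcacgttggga
Cbfa2t3: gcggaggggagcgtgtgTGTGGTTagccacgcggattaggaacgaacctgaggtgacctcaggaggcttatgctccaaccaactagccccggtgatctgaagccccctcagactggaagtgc
Col18a1: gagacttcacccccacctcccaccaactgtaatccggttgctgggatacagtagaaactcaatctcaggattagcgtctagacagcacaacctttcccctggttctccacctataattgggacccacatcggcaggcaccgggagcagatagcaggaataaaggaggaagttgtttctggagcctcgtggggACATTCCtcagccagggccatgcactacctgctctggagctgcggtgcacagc
Col23a1: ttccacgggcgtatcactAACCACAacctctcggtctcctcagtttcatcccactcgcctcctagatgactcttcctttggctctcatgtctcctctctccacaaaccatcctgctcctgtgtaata
Col24a1: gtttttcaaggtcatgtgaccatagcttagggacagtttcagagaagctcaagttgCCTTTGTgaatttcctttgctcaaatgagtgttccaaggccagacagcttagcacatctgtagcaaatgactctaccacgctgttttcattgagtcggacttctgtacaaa
Col4a3: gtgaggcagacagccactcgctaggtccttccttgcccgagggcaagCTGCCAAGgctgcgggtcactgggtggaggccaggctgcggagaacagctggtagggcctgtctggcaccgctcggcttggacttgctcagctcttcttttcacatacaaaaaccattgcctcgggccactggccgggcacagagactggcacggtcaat
Col5a1 intronic: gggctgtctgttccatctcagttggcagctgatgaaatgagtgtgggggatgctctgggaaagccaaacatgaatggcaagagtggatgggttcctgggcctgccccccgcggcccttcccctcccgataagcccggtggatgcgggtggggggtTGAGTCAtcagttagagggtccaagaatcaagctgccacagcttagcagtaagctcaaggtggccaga
Col6a5: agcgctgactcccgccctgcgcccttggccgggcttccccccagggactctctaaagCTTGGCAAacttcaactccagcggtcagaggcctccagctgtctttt
Col8a1: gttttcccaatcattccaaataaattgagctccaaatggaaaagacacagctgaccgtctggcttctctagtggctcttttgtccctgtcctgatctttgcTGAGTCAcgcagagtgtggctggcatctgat
Nfib: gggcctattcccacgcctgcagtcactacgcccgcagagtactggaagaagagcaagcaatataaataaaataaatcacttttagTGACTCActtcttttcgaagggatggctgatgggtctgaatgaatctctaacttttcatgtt
The region at Cbfa2t3, a RUNX1T1-related corepressor, was at chr8:122648405-122648526 in intron 2. Those of the collagen genes were at chr10:77151044-77151288 (Col18a1, intron), chr11:51518816-51518942 (Col23a1, intron 3), chr3:145498292-145498458 (Col24a1, intron 47), chr1:82634582-82634788 (Col4a3, intron 1, within 5000 bp upstream of an annotated gene's start), chr2:27899569-27899791 (Col5a1, intron 1), chr9:105960684-105960787 (Col6a5, midpoint 92 bp upstream of the start) and chr16:57740034-57740165 (Col8a1, intron 1). The region at Nfib, a nuclear factor I gene, was at chr4:82426928-82427074 in intron 2. The regions held between 2 and 9 CpG each. The nearest day 5 region was 21946 bp away for Nfib and 6828959 bp away for Col8a1, the lowest and the highest of the 12.

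The day 10 only regions at genes were short. Their median width was 146 bp (quartiles 131 and 185 bp, range 54 to 603 bp), and together they covered 332447 bp. Regions at genes with a day 5 partner had a median of 170 bp and day 5 only regions at genes one of 803 bp, the narrowest of the latter being 383 bp wide. The plot of widths shows that the day 10 only and day 5 only groups hardly overlapped in width. Whether the lists were called in the same way was not tested, and a change in 5hmC cannot be told apart from a change in what was called. The widest day 10 only regions lay in intron 1 of Sema3f, a secreted guidance protein (603 bp), intron 10 of Sfi1 (589 bp), intron 1 of the histone deacetylase gene Hdac7 (433 bp), intron 1 of the serine protease gene Htra3 (426 bp) and at the zinc finger gene Patz1 (422 bp).

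**Figure D1:**
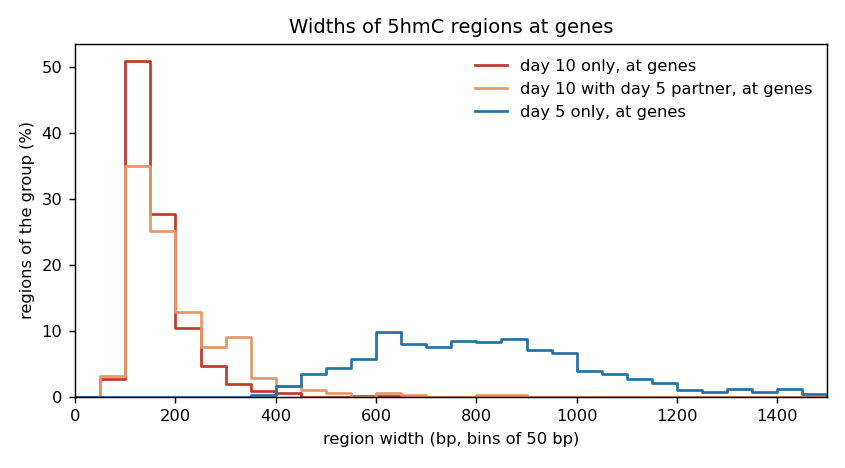
Share of regions (%) by width in bins of 50 bp for day 10 only regions at genes (n = 2026), day 10 regions with a day 5 partner at genes (n = 383) and day 5 only regions at genes (n = 880). Both day 10 groups peak between 100 and 150 bp, and the day 5 only group lies above 383 bp.

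Most were far from any day 5 region. The median distance to the nearest one was 199539 bp (quartiles 68725 and 524909 bp), and 1339 lay over 100000 bp away. Within 1000 bp of a day 5 region there were 14, and within 10000 bp there were 116. The closest was 12 bp away, at D330050G23Rik, followed by Gm12159 (71 bp). The smallest overlap that put a region among those with a partner was 47 bp, at Ube2h, in a region of 128 bp. Next came 57 bp at Traf2, 57 bp at Deaf1 and 59 bp at Cdh13, each the full width of its region. There was thus no region that touched a day 5 region by only a few bases, and few depended on the exact limit.

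The 2026 regions carried 1516 symbols. Of the symbols 1175 had 1 region, 239 had 2, 68 had 3 and 34 had 4 or more. The symbol was found in the GENCODE mouse annotation by name for 1843 regions and through a RefSeq synonym for 149. For 34 it was not found, among them 18 with a microRNA symbol and 3 whose symbol was a calendar date. Of those matched, 1898 were at protein-coding genes, 1743 (87.5%) overlapped the named gene, and 54 were over 5000 bp from it, at most 24305 bp.

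The genes with most regions were long. Foxp1, a forkhead repressor expressed in skeletal progenitors, had 9 day 10 only regions, all in introns, over 441987 bp, and 4 further day 10 regions with a partner. It was the gene of this group with most day 5 regions (6). The regions at Foxp1 were 115 to 281 bp wide, and 1 held one of the strings in its 200 bp window. Auts2, a chromatin and cytoskeleton regulator, had no day 5 region and 7 day 10 only regions, of which 3 held a string in that window. The actin-binding gene Limch1 had 7, Wwox, an oxidoreductase and tumour suppressor, had 7, and 1700112E06Rik had 7, with 1 day 5 region at each. Ltbp1, which tethers latent TGF-beta to the matrix, had 6 intronic regions, and no day 5 region. So did the cAMP phosphodiesterase gene Pde4d. Maml3, a Notch coactivator, had 6 with 2 day 5 regions, and the exchange factor gene Rapgef4 had 6 with 1. The other genes, with 5 regions each, were Ankrd44, Apbb2, Asap1, Cacna2d3, Fras1 and the microRNA symbol Mir1195. Among the genes named in this paragraph, Limch1 and Rapgef4 had the highest density, at 2.25 and 2.17 regions per 100 kb of gene. Pde4d had the lowest of them, at 0.399.

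**Figure D2:**
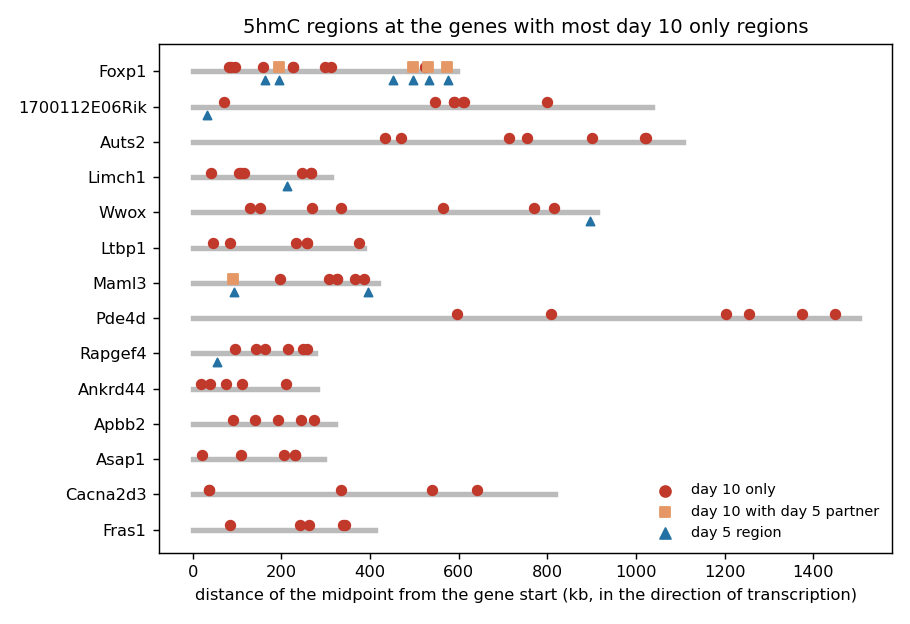
Positions of 5hmC regions along 14 of the 15 genes with most day 10 only regions, as distance (kb) from the gene start; Mir1195 has no annotated gene. Grey lines are genes, circles day 10 only regions, squares day 10 regions with a day 5 partner and triangles day 5 regions. Regions were spread along the genes, and 8 of the 14 genes had no day 5 region.

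Most regions of the same gene were far apart, and some lay close together. The spacing of random positions in these genes was not computed, so clustering was not tested. Among 510 neighbouring pairs at a symbol the median spacing was 32663 bp, with 386 over 10000 bp apart and 62 within 1000 bp. Examples of close pairs were those in intron 28 of the elastin gene Eln, intron 2 of the netrin gene Ntn1, intron 10 of Ltbp1 and intron 16 of Adamts17.

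Gene length went with the presence of a region. Of 21924 protein-coding genes, 1413 (6.44%) had at least 1 region. In 5 equal classes of genes by length the share was 1.28%, 1.64%, 2.92% and 5.75% from the shortest class up, and 20.6% in the longest class, whose genes are 58114 bp or more. The median length was 17410 bp over all protein-coding genes, 91068 bp over those with a region and 179104 bp over those with 2 or more. Of the 1413 genes, 287 (20.3%) also had a day 5 region under the same symbol, against 4.57% of all protein-coding genes, and 1126 had none. The 287 were 28.6% of the 1003 genes with a day 5 region. No test was made of this overlap, since gene length enters both counts.

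Lists of genes of cartilage and signalling were counted against these shares. Lists differed in gene length. Counts are therefore given for all genes of a list and for those in the longest class, called long genes here. That class runs from 58114 to 4434882 bp, so gene length still differs within it. The counts are to be read beside 6.44% and 20.6%. These are descriptions of counts with no test. Only day 10 only regions were counted. A gene said to have none may still have a day 10 region with a day 5 partner.

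Among transcription factors, the SOX list had a region at 2 of 19 genes (10.5%), and at 1 of its 2 long genes. Sox5, the cofactor of SOX9 in chondrocytes, had 4 regions in introns 2, 3 and 10, between 640399 and 919160 bp from its start. They were 97 to 263 bp wide, and 1 held a RUNX string in its 200 bp window. The nearest day 5 region was 4780 to 78756 bp away, and Sox5 had 2 day 5 regions. Sox12 had 1 region, 772 bp upstream of its start, with 22 CpG in 200 bp, the highest number of all the day 10 only regions. No region was at Sox9 or Sox6. The list of RUNX factors and partners had 5 of 10 genes, and 4 of its 7 long genes (57.1%). Runx1 had 3 regions in introns 4, 5 and 6, and 2 day 5 regions, the nearer one 3899 bp away. Runx2, the factor of hypertrophy and bone, had regions in introns 2 and 5, the first without a CpG in its 200 bp window, and 1 day 5 region. The corepressor gene Tle3 had 2. Of the 4 nuclear factor I genes, all long, 3 had a region, with 2 in intron 2 of Nfib. Of 42 genes of AP-1 and other bZIP factors 4 had one (9.52%), and 2 of the 8 long ones (25%), with 2 regions at Creb5. TEAD factors and the Hippo pathway had 5 of 15, and 4 of 9 long genes (44.4%), with 3 regions at the Hippo kinase gene Stk4 and 2 at Amotl2. The TEAD, FOS and JUN genes themselves had none.

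Of 25 DNA methylation and demethylation enzymes 2 had a region (8%), 1 of the 6 long ones (16.7%) among them. Tet1, which encodes the TET enzyme knocked down elsewhere in this work, had 2, in intron 5 of 12 (chr10:62833266-62833552) and in intron 3 (chr10:62851523-62851695). They were 290477 and 272334 bp from the nearest day 5 region. The first lay 328 bp from a region of the day 10 5mC list. Gadd45g had 1. Of 16 genes listed for their mention in the publication on these cells, 5 had a region (31.2%), and 4 of the 9 long ones (44.4%). These were Sox5, Tet1, Runx2, Scrg1, a chondrocyte-induced gene, and Hapln1, the link protein that binds aggrecan to hyaluronan. The Scrg1 region was in intron 1 with an NF1 string in its 200 bp window, 2919584 bp from a day 5 region. The Hapln1 region was in intron 1 and 55 bp wide. Col2a1, Acan and Col10a1 had no day 10 only region. Regions with a day 5 partner were not counted here, so this does not show that these genes lacked 5hmC. The study describes 5hmC at Col2a1 and Acan as rising with differentiation. That rise was not tested by these counts. The genes of this list were chosen on cells of this line, so their count is not independent evidence.

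For matrix genes, 15 of 44 collagen genes had a region (34.1%), and 13 of the 28 long ones (46.4%). Col14a1 had 3, and Col5a1, Col8a1 and Col24a1 had 2 each, with no day 5 region at any of the 4. Among the cartilage collagens Col11a1 had 1 region, 2042 bp upstream of its start and without a CpG in its 200 bp window. Col11a2 had 1 in intron 1, while Col2a1, Col9a1, Col9a2, Col9a3 and Col10a1 had none. Proteoglycans and glycoproteins had 14 of 67 (20.9%) and 7 of 28 long genes (25%), with 2 regions each at Fbn1, Eln and Lama3. Only Fbn1 among these 3 had day 5 regions (4). Matrix proteases and inhibitors had 10 of 49 (20.4%) and 6 of 17 long genes (35.3%). The gelatinase gene Mmp2 had 3 regions within 7822 bp of its start, 1 of them upstream, and 1 day 5 region. Adamts2, the procollagen peptidase, had 3 in intron 3, and Adamts3, Adamts17 and Htra1 had 2 each. Adamts4 and Adamts5, the aggrecanases, had 1 each, that of Adamts5 84 bp from its start. The midpoint of the Adamts4 region was 11077 bp past the start of a gene of 10217 bp, so beyond its end. Integrins and cadherins had 5 of 45 (11.1%), and 4 of 29 long genes (13.8%), below the share of all long genes, with 2 regions each at Itga8 and Itgb5.

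Among signalling genes, the TGF-beta and BMP list had 10 of 59 (16.9%) and 7 of 25 long genes (28%). Besides Ltbp1, the receptor gene Acvr1 and the transducer gene Smad3 had 3 each, and the receptor genes Tgfbr2 and Tgfbr3 had 2 each. The inhibitory Smad6 and Smad7 had 1 each. The WNT list had 17 of 71 (23.9%) and 12 of 23 long genes (52.2%). Ror2, a WNT5A receptor, had 3 regions in intron 1 and 2 day 5 regions. Tcf7l2, the nuclear effector of beta-catenin, had 3, and the coreceptor genes Lrp5 and Lrp6, Prickle2 and Daam2 had 2 each. The hedgehog, PTHrP and Notch list had 10 of 37 (27%) and 8 of 14 long genes (57.1%), with 3 regions at Sufu, the inhibitor of GLI factors, and 2 each at Notch2, its DNA-binding effector gene Rbpj and the hedgehog coreceptor gene Boc. Pth1r, the PTHrP receptor, had 1 region of 402 bp in intron 9. The insulin, IGF and PI3K list had 9 of 42 (21.4%) and 8 of 24 long genes (33.3%), with 4 regions at Mtor, in introns 26 to 31, and 2 at Igf1r. The FGF and MAP kinase list had 4 of 55 (7.27%) and 4 of 28 long genes (14.3%), and none of its genes had 2.

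In the other lists, hypertrophy and ossification had 5 of 27 (18.5%) and 3 of 7 long genes (42.9%), including Vegfa and Hdac4 with 1 each. Col10a1, Mmp13, Ihh, Alpl, Sp7, Ibsp, Spp1 and Phospho1 of this list had none. Semaphorin, ephrin, Slit and netrin guidance had 11 of 68 (16.2%) and 9 of 35 long genes (25.7%), with 3 regions in intron 4 of Slit3 and 2 at Ntn1. Histone modifying and remodelling enzymes had 7 of 69 (10.1%), with 2 at Arid1b, and 6 of 41 long genes (14.6%). Adipocyte, muscle and neural lineage genes had 5 of 28 (17.9%), 1 region each, all among the 11 long ones (45.5%).

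**Figure D3:**
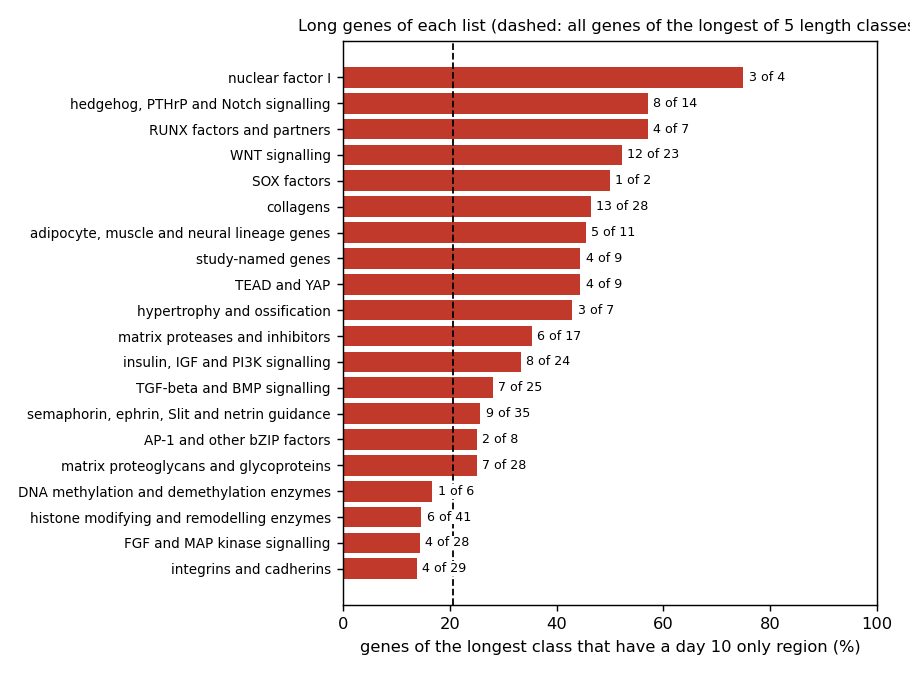
Share (%) of the genes of each list in the longest of 5 length classes of protein-coding genes that have at least 1 day 10 only region; numbers beside the bars are genes with a region of all long genes of the list. The dashed line is the share of all genes in that class, 20.6%, and lists with under 10 long genes rest on few genes.

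Within genes most of the regions lay in introns. The part of gene sequence that is intron, first intron or promoter was not computed, so these shares show no preference. By midpoint, 1486 of 2026 (73.3%, 95% Wilson interval 71.4 to 75.2) were in introns and 286 (14.1%, 12.7 to 15.7) in the 5000 bp upstream of some gene's start, called promoters here. With promoters of 2000 bp the share was 7.06%, and with those of protein-coding genes only it was 8.09%. Coding exons held 54 (2.67%), other exons 103 (5.08%) and 97 (4.79%) were in none of these. Intervals cover counting error over regions only. The intron share was 5.39 points above that of day 5 only regions at genes (68%, Fisher's exact test, two-sided, adjusted p = 0.0178). That difference was lost with 1 region for each gene (70.3% against 66.1%, Fisher's exact test, adjusted p = 0.21). Coding exons held fewer of the day 10 only regions than of the day 5 only ones (2.67% against 6.7%, Fisher's exact test, adjusted p = 9.67e-06). Against regions with a day 5 partner none of the 5 classes passed the threshold, and the promoter share passed it against neither group (12% with a partner, adjusted p = 0.541 by Fisher's exact test; 14.5% day 5 only, adjusted p = 0.966). Adjusted p-values are Benjamini-Hochberg values over the 10 comparisons of location.

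Few were near a gene start. The median distance past the start of the named gene was 39040 bp (quartiles 9566 and 108440 bp), 547 were over 100000 bp past it, and 81 were within 1000 bp. Of 1550 in an intron of the longest coding transcript, 475 (30.6%) were in the first. Along the gene the median position was 48.7% of its length, with quartiles of 24% and 74.1%, so the regions were spread over the whole body. A RefSeq promoter window (250 bp before to 50 bp after a start) was overlapped by 26, among them those of the heparan sulfate proteoglycan gene Gpc2, the collagen gene Col6a5, the 14-3-3 gene Ywhag and the bZIP gene Tef.

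The regions were rich in CpG against the sequence beside them. The capture of 5hmC, which lies mostly on CpG, favours such sequence in advance. The difference from flanks is thus a description of what was captured. Tests against flanks, here and further on, took both flanks of a region as separate windows and did not use their pairing with it. In windows of 200 bp around the midpoint 69.5% (67.5 to 71.5) had at least 3 CpG, against 36.2% of flanking windows of the same length 2000 bp from either edge (odds ratio 4.03, adjusted p = 9.81e-135 by Fisher's exact test). The median was 3 CpG in the regions and 2 in the flanks. This share was below those of regions with a day 5 partner (76.2%, Fisher's exact test, adjusted p = 0.0136) and of day 5 only regions at genes (78%, adjusted p = 7.43e-06 likewise), and both differences were lost in 100 bp windows with at least 2 CpG. Against day 10 only regions outside genes (66.6%) the threshold was not passed (Fisher's exact test, adjusted p = 0.0918). In 48 regions the window held no CpG. The median GC content was 49.5% against 46% in the flanks. Windows that were at least 50% repeat made up 5.38% of the regions and 15.4% of the flanks (odds ratio 0.313, adjusted p = 2.30e-32 by Fisher's exact test). This share was higher than in day 5 only regions (3.07%, Fisher's exact test, adjusted p = 0.0136). In 100 bp windows it no longer passed (6.86% against 4.89%, adjusted p = 0.091 by the same exact test).

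Strings of AP-1, NF1, RUNX and TEAD factors were more frequent in the regions than beside them, and those of SOX factors were not. The AP-1 string was in 189 of 2026 windows (9.33%, 8.14 to 10.7) and in 3.65% of flanking windows, with an odds ratio of 2.71 (adjusted p = 7.41e-18 by Fisher's exact test). NF1 strings were in 5.53% against 2.3% (odds ratio 2.49, adjusted p = 5.16e-10 by Fisher's exact test), RUNX in 8.88% against 5.03% (1.84, Fisher's exact test, adjusted p = 2.24e-08) and TEAD in 4.84% against 2.86% (1.72, Fisher's exact test, adjusted p = 1.46e-04). SOX strings were in 6.47% of windows and 6.89% of flanks (odds ratio 0.935, adjusted p = 0.551 by Fisher's exact test). At least 1 of the 5 kinds was found in 628 regions (31%) and in 19.2% of flanks, and 2 or more kinds in 75 regions. The most frequent pair was AP-1 with SOX (18 regions), followed by RUNX with SOX (16) and AP-1 with RUNX (11). In 200 bp of all 32851 RefSeq promoters the shares were 3.73% for AP-1, 2.22% for NF1, 3.6% for RUNX, 6.45% for SOX and 2.6% for TEAD. A string is a match of letters and not a site shown to be bound. These tests were chosen with earlier results of these data known. Flanks were lower in GC (median 46% against 49.5%) and more often repeat. The part of GC content in the differences from flanks was not tested. Many other strings also differed from flanks, as given further on.

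The AP-1 string was less frequent in the day 10 only regions than in day 5 only regions at genes, but not set apart from the other day 10 groups. It was in 22.2% (19.5 to 25) of the windows of day 5 only regions at genes, against 9.33% here (odds ratio 0.361, adjusted p = 2.52e-18 by Fisher's exact test over 15 comparisons). The odds ratio stayed between 0.351 and 0.455 under the other settings. Regions with a day 5 partner held it in 12% (9.13 to 15.6) and day 10 only regions outside genes in 7.7%, neither of which passed the threshold against the day 10 only regions at genes (Fisher's exact test, adjusted p = 0.328 for both). For the other strings no comparison with these 3 groups passed it. NF1 strings were in 3.98% of day 5 only windows and TEAD strings in 3.07%, against 5.53% and 4.84% here (Fisher's exact test, adjusted p = 0.328 and 0.271). RUNX strings were in 8.62% to 8.88% of windows of all 4 groups. Day 5 only regions were wider, and the part of width in the AP-1 difference was not tested.

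**Figure D4:**
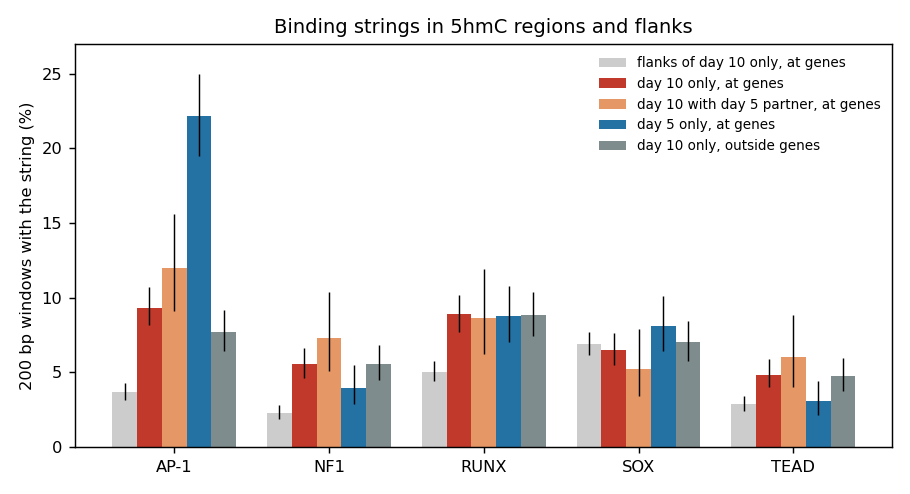
Share (%) of 200 bp windows with a string of each factor in flanks of the day 10 only regions at genes and in 4 groups of 5hmC regions. Error bars are 95% Wilson intervals, and the AP-1 bar of day 5 only regions (22.2%) stands above that of the day 10 only regions (9.33%).

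The excess was centred on the regions. In bins of 100 bp the mean CpG number was 1.88 on either side of the midpoint and 1.25 near 1950 bp before it. The AP-1 string was in 4.89% of regions in the bin before the midpoint and in 2.17% at the farthest bin before it, and NF1 strings rose from 0.938% to 2.67%. Day 5 only regions reached 11.9% for AP-1 and 2.33 CpG in the same bin.

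**Figure D5:**
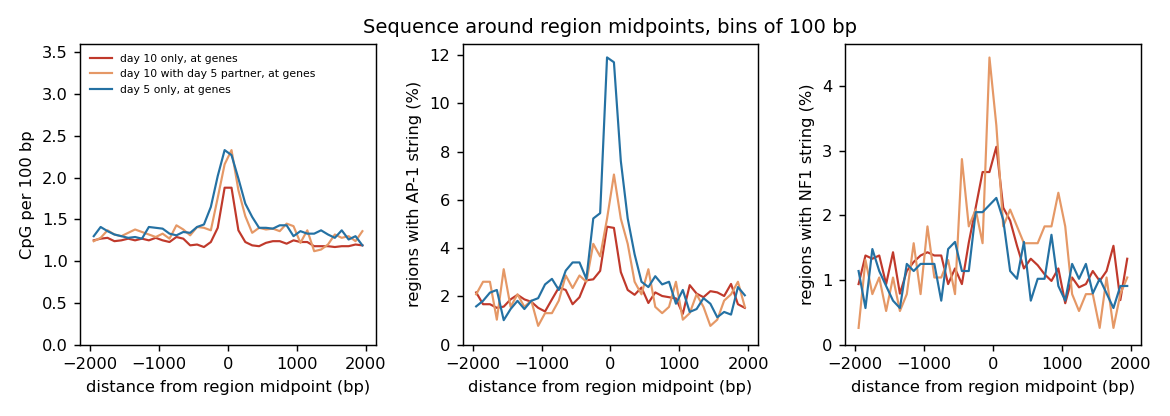
Mean CpG number per 100 bp, share of regions (%) with the AP-1 string and share with an NF1 string, by distance (bp) from the midpoint in bins of 100 bp. All 3 groups peak at the midpoint, and day 10 only regions at genes are lowest there for CpG and AP-1.

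All 8192 strings of 7 bases, each pooled with its reverse complement, were then compared in the same windows. This comparison was added after the data had been seen. In the regions 785 (9.58%) were more frequent than in flanks and 521 (6.36%) less frequent (Fisher's exact test, adjusted p under 0.05). Of the 785, 373 held a CpG and 412 did not, against 2760 with a CpG among all 8192 strings and 3 among the 521. The string with the smallest p was CACGTGG, which holds the E-box core bound by many basic helix-loop-helix and bZIP factors. It was found in 6.17% of regions and 1.31% of flanks, an odds ratio of 4.96 (adjusted p = 2.22e-20 by Fisher's exact test). It also holds a CpG, which the capture favours, and the part of this in the difference was not tested. Among strings without a CpG the smallest p was that of AGCCAAG (10.8% against 4.44%, odds ratio 2.61, adjusted p = 3.29e-16), and the AP-1 string came next, both by Fisher's exact test. Then followed GCCAAGC (7.85% against 2.79%, odds ratio 2.97, adjusted p = 6.44e-15 by the same exact test). The string AAACCAC was in 8.29% against 3.11% (odds ratio 2.82, adjusted p = 1.40e-14 by the same exact test). The former 2 share the letters GCCAAG with the NF1 strings, and the last shares AACCAC with the RUNX string. Strings that were less frequent were rich in A and T, such as ATATATG (0.444% against 3.33%). These strings overlap one another and are not independent.

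Few regions lay beside a listed 5mC region, and the share to be found at random positions was not computed. Of 2026, 12 (0.592%, 0.339 to 1.03) lay within 1000 bp of a region of the day 10 5mC list and 5 overlapped one, while 3.66% (2.19 to 6.04) of the regions with a day 5 partner were that near (odds ratio 0.157, adjusted p = 2.43e-05 by Fisher's exact test). Without mitochondrial and ribosomal RNA regions the shares were 0.592% and 2.89% (Fisher's exact test, adjusted p = 8.88e-04). Day 5 only regions at genes (1.14%, Fisher's exact test, adjusted p = 0.239) and day 10 only regions outside genes (0.56%, Fisher's exact test, adjusted p = 1) did not pass the threshold. The 5 that overlapped a 5mC region were at Kif14, a mitotic kinesin gene, Csf1, the macrophage growth factor gene, Ttc28, Fam188b and Ano2, a chloride channel gene. Those within 1000 bp were at Enpp3, Tet1, Bst1, Rbks, Wwc1, Cbx8 and Leprel2. No region was within 5000 bp of the day 0 5mC list (0 of 2026, which allows a share of up to 0.148%). Both 5mC lists were sparse, with autosomal medians of 0.143 regions per Mb at day 0 and 0.937 at day 10. The low counts therefore do not show that the regions avoid 5mC.

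The regions were unevenly spread over chromosomes. On autosomes there were between 0.258 per Mb (chromosome 12, 31 regions) and 1.37 per Mb (chromosome 19, 84 regions), with a median of 0.872. Chromosome 5 held most, 196, or 15.6 per 100 protein-coding genes. Chromosome X had 13 regions, 0.076 per Mb, and chromosome Y had 1. The day 5 5hmC list showed 0.291 per Mb on chromosome 12 and 0.0702 on chromosome X against an autosomal median of 0.818, and the day 10 5mC list 0.283 and 0.076 against 0.937. Chromosomes 12 and X were thus low in each of these lists.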

How the data were processed

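5hmC was captured with a glucosyltransferase and biotin, and 5mC with a methyl-CpG binding complex. Single-end reads were trimmed with cutadapt, aligned to GRCm38 with BWA and used for peak calling with MACS 1.4.2 by the authors, who then annotated the peaks. The deposited files give positions and gene symbols only. They hold no other value, and the file headers state at least 10-fold enrichment for 5hmC and 3-fold for 5mC. Blank rows were dropped and no region was filtered. Starts and ends were taken as the first and last base, which the sources used here do not state.

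Genes were those of GENCODE mouse release 21, and sequence was that of GRCm38.p6. Shares were compared with two-sided Fisher's exact tests in Python 3 with scipy, with Benjamini-Hochberg adjustment within each family, and the functions were tested on simulated data. Overlap meant at least 1 bp. The genes named were the 15 with most regions, list genes with 2 or more regions or named in the study, and the 5 widest regions. Other list genes were named after their counts were seen. The regions, lists and tests were chosen with earlier results of these data known. The input sample was not analysed here.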

Additional observations from a re-analysis of the deposited data

How the results depend on the processing

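No paired analysis was possible because each day has 1 list, made from both of its numbered samples, and for the same reason no replicate could be left out. The number of regions moved from 2026 to between 1963 (regions within 1000 bp merged) and 2308 (annotated genes in place of the authors' symbols). Protein-coding genes with 2 regions or more numbered 324 in place of 1413.

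With 1 region for each gene, the intron share no longer passed against day 5 only regions (odds ratio 1.21) nor the CpG share against regions with a partner (0.753), and values that had not passed crossed 1: introns (0.852), RUNX (0.988) and repeats (1.06) against regions with a partner, and NF1 (1.04) and repeats (1.02) against those outside genes. In 100 bp windows the CpG share no longer passed against regions with a partner (0.877) or day 5 only (0.896), nor repeats against day 5 only (1.43). CpG against regions outside genes (1.19) and TEAD against day 5 only (2.47) then passed, and SOX against flanks (1.07), AP-1 against partners (1.01), RUNX (0.917) and SOX (1.04) against those outside genes crossed 1 without passing. The cause was not tested.

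In 400 bp windows NF1 (1.11) and TEAD (0.874) against regions outside genes and TEAD against day 5 only (0.949) crossed 1 without passing. So did SOX with flanks 10000 bp away (1.05), NF1 (1.01) and TEAD (0.982) against regions outside genes when none lay within 1000 bp of the other day's list, and overlap with 5mC against those outside genes (0.704). Assigned by any base, coding exons passed against regions with a partner (0.56) and the unassigned class crossed 1 (0.998). The AP-1, NF1, RUNX and TEAD differences from flanks and the AP-1 difference from day 5 only regions kept direction and threshold in every setting tried. The unknown depth limits every absence: a region not listed at day 5 may have been missed there.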
